A study of Mus musculus with 6 samples.

Results

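The mitochondrial carrier family was described here in whole kidneys of mice with an activated Notch2 allele and of wild-type mice. Its members were the genes whose symbol is Slc25a followed by a number. The gene table held 47 of them, of which 45 had values, out of 19503 genes with values among 23873 in all. Slc25a41 and Slc25a54 had no values. The 3 libraries of the first group, called NICD2_Pax8, came from kidneys labelled R26NICD2/+pax8cre, and the 3 of the second group, called WT, from kidneys labelled wild type. NICD2 stands for the Notch2 intracellular domain, a fragment that enters the nucleus and acts with no ligand, placed at the Rosa26 locus and released by Cre. Pax8 is a transcription factor of the renal tubule epithelium, so its driver is restricted to part of the cells in these whole kidneys. In the series title the driver is Pax-rtTA in place of pax8cre, and sample titles of the WT kidneys also begin with NICD, so whether these carried the allele without the driver is not settled by the labels. All 6 libraries were of kidneys at 8 weeks of age. Neither separate animals nor pooling is stated in the labels, so the p-values here reflect the spread among 6 libraries, part of which may be technical.

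Mitochondrial carriers are small proteins, most of them in the inner mitochondrial membrane, that move nucleotides, phosphate, organic acids, amino acids and cofactors between the matrix and the cytosol. The ADP/ATP and phosphate carriers supply ATP synthase, and the carboxylate, aspartate and glutamate carriers link the citric acid cycle to gluconeogenesis, lipid synthesis and the transfer of reducing equivalents. The proximal tubule, rich in mitochondria, oxidises fatty acids and makes glucose, and depends on these exchanges. Levels are given as FPKM, fragment counts scaled by transcript length and library size, which is a level per length.

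The estimated depth was 15900000 to 17800000 fragments in the NICD2_Pax8 libraries and 14600000 to 15000000 fragments in the WT libraries. The groups also differed in markers of other cells. Summed FPKM of 12 proximal tubule markers was 197 to 771 in NICD2_Pax8 and 5147 to 7639 in WT, and all 12 were lower by the test used below. In that list Slc34a1, the apical phosphate transporter of the proximal tubule, averaged 149.9 FPKM in NICD2_Pax8 and 2329 in WT. Counts in the marker lists are to be read against 16.2% of all genes lower and 45.1% higher by that test. Many markers of other kidney cells were lower too. These were 6 of 7 of the thick ascending limb, 4 of 5 of the distal convoluted tubule and 6 of 6 of intercalated cells. Of podocytes and of endothelium 4 of 5 each were lower. In those lists Wnk4 and Synpo were higher, and Cdh5 and Umod (1346 FPKM in NICD2_Pax8 and 1118 in WT) were not called. Other lists were mixed. Of 5 principal cell markers 2 were higher (Scnn1b and Scnn1g), near the share of all genes, 2 lower and 1 not called. Of 4 fibroblast markers 1 was higher (Col1a1), 2 lower and 1 not called. WT replicate 1 held transcripts of adrenal cortex. The summed FPKM of 5 adrenal markers was 1.39 to 1.60 in NICD2_Pax8 and 3629, 1.63 and 1.41 in the WT libraries. That library also had the most fat transcripts, which other libraries held too. The summed FPKM of 6 adipocyte markers was 64.3 to 429 in NICD2_Pax8 and 4547, 925 and 158 in WT. Hsd3b1, a steroid synthesis enzyme and the most abundant of the adrenal markers, was listed at 0 FPKM in all NICD2_Pax8 libraries and at 1208, 0.13 and 0 FPKM in WT, and Fabp4, the most abundant of the adipocyte markers, at 45.5 to 159 FPKM in NICD2_Pax8 and 2139, 527 and 117 FPKM in WT. Macrophage markers summed to 1179 to 1623 in NICD2_Pax8 and 274 to 488 in WT, and proliferation markers to 102 to 138 in NICD2_Pax8 and 3.75 to 13.7 in WT, led by Cd74 and by Top2a. Of the 6 macrophage markers 4 were higher, Cd74 made up most of the sum, and Csf1r (17.3 FPKM in NICD2_Pax8 and 16.5 in WT) and Adgre1 (6.53 and 5.32) were not called. All 4 proliferation markers were higher. The part of these differences in the carrier results was not tested, and in bulk samples fewer cells of a type and less RNA per cell cannot be told apart.

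Most carriers that changed were lower in NICD2_Pax8 kidneys. Of the 45 members, 40 passed the filter of 1 FPKM in at least 3 libraries, which can favour a gene that passes only in its high group. With FPKM as deposited, 17 of the 40 (42.5%) were lower and 4 (10%) were higher at an adjusted p under 0.05 (limma with a mean-variance trend on log2(FPKM + 1), two-sided, Benjamini-Hochberg adjustment over 13500 genes). Over all genes tested, 16.2% were lower and 45.1% were higher. The median log2 fold change was -0.35 over the 40 carriers and 0.32 over all genes.

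Because the median gene lay above 0, the libraries were also scaled by the median of ratios, which moved the median of all genes to 0.00. With it 27 carriers were lower and 1 was higher, against 27.0% and 27.6% of all genes, and the median over the carriers was -0.73. After quantile normalization 24 were lower and 1 higher, against 26.4% and 28.6% of all genes, and after upper quartile scaling 26 and 1, against 23.9% and 31.2%. All 17 carriers lower as deposited were lower under each of the 4 scalings (as deposited, median of ratios, quantile, upper quartile), and Slc25a24 was the single carrier higher under all 4. The other 10 of the 27 were Slc25a1, Slc25a4, Slc25a11, Slc25a22, Slc25a26, Slc25a29, Slc25a38, Slc25a39, Slc25a44 and Slc25a46. Slc25a27, Slc25a36 and Slc25a43 were higher only as deposited, and 9 carriers passed in neither. In the authors' deposited table, at a q under 0.05, 27 carriers were lower, the same 27 as after median-of-ratios scaling, and 1 was higher, against 21.5% and 21.3% of all genes there. Leaving out WT replicate 1 gave 18 lower and 5 higher as deposited, against 16.9% and 49.3% of all genes, and 30 lower and 1 higher after median-of-ratios scaling, against 29.2% and 29.7%.

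**Figure D1:**
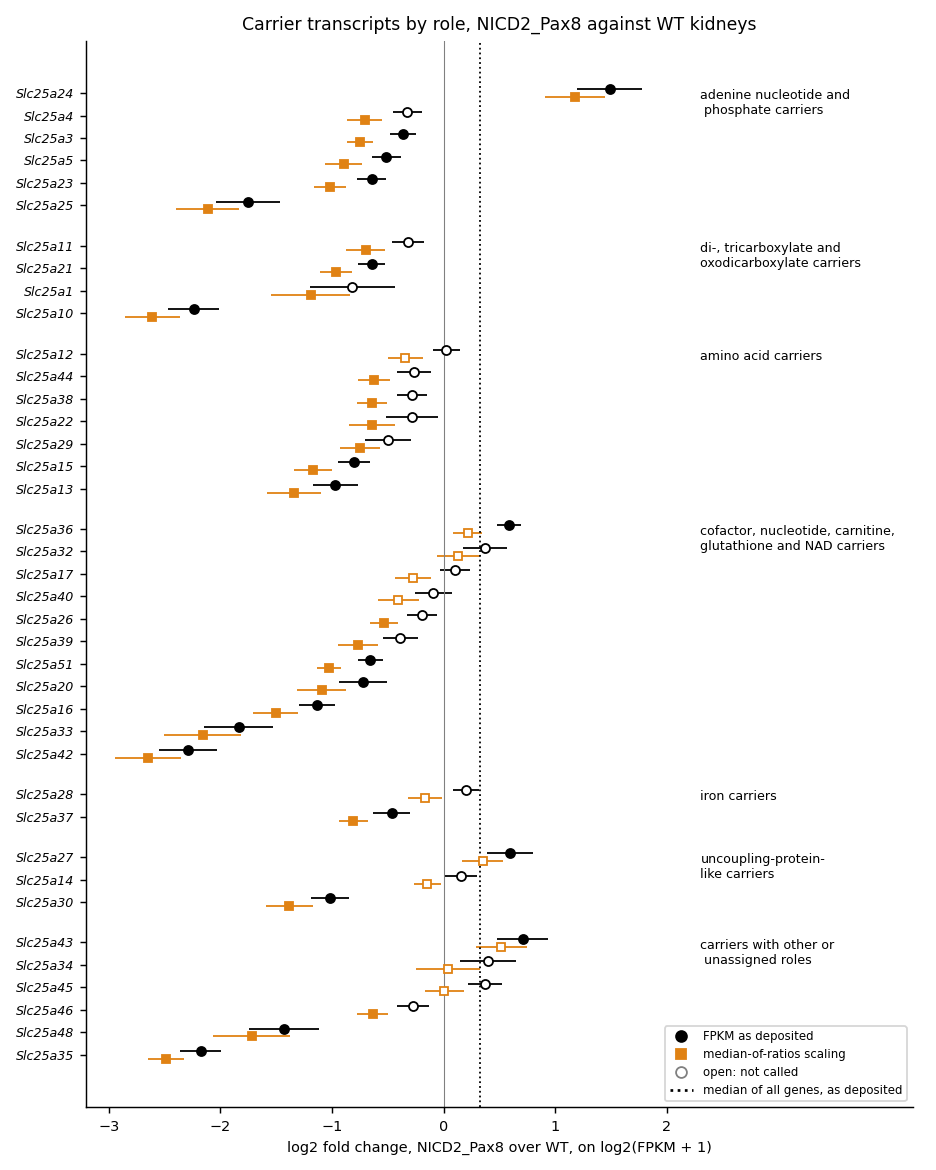
Log2 fold change, NICD2_Pax8 over WT, on the log2(FPKM + 1) scale for carriers that were tested, grouped by role, as deposited and after median-of-ratios scaling, with the limma standard error. Open symbols were not called. As deposited, Slc25a42, Slc25a10 and Slc25a35 lie lowest, between -2.29 and -2.18, and Slc25a24 is highest at 1.49.

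The libraries of the groups did not overlap for 22 carriers that were lower and 4 that were higher as deposited, against 18.8% and 49.9% of all genes tested. After median-of-ratios scaling the counts were 27 and 2, against 32.2% and 32.9%. Within NICD2_Pax8, replicate 1 was the lowest library for 25 of the 40 carriers. That library also had the lowest summed FPKM over all genes (517124), and the share over all genes was not computed.

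**Figure D2:**
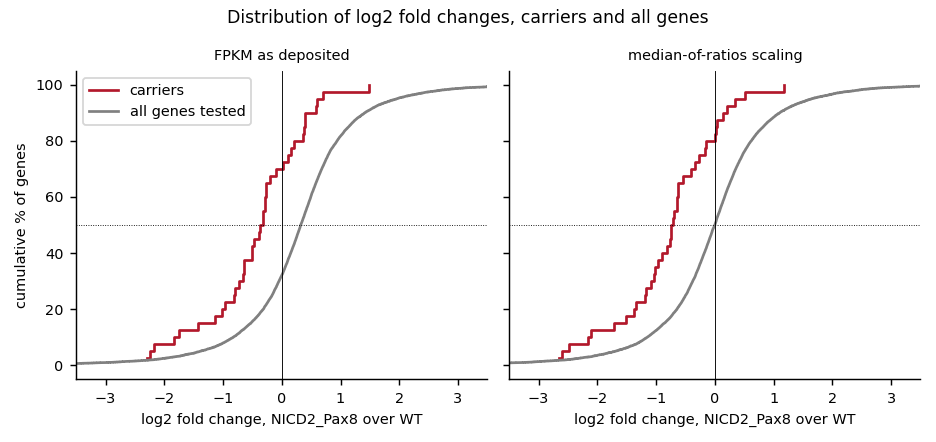
Cumulative share of genes by log2 fold change, NICD2_Pax8 over WT, for the 40 carriers and for the 13500 genes tested, as deposited and after median-of-ratios scaling. The carrier curve lies left of the curve of all genes, with medians of -0.35 and 0.32 as deposited, and of -0.73 and 0.00 after scaling.

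The summed level of the family was lower in every NICD2_Pax8 library than in any WT library. The sum was 2068, 2351 and 2298 in NICD2_Pax8 and 3044, 3120 and 3229 in WT. Of all summed FPKM this was 0.400% to 0.440% in NICD2_Pax8 and 0.539% to 0.553% in WT. It was held mainly by Slc25a3, Slc25a5 and Slc25a39, which made up 59.8% to 60.9% of it in NICD2_Pax8 and 57.2% to 59.5% in WT.

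**Figure D3:**
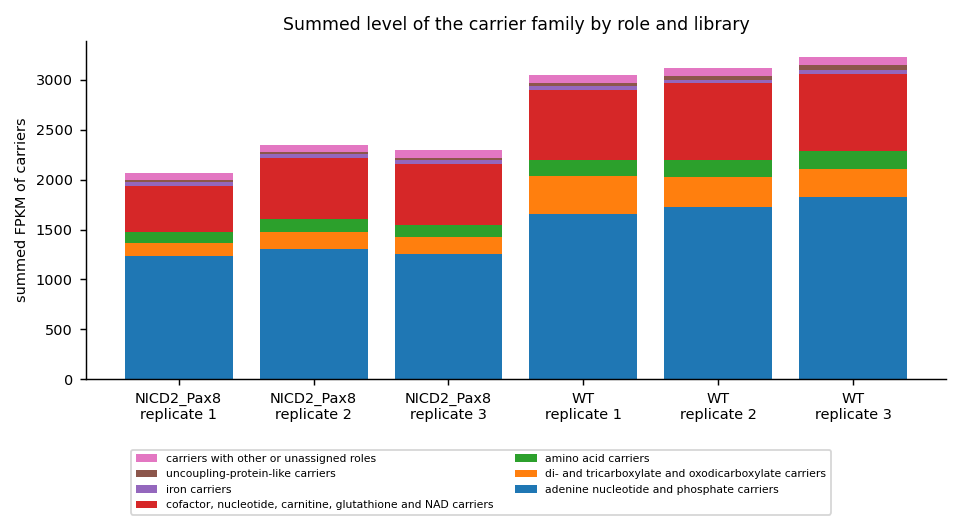
Summed FPKM of the carriers in each library, stacked by role, with the NICD2_Pax8 libraries left of the WT libraries. The stacks reach 2068 to 2351 in NICD2_Pax8 and 3044 to 3229 in WT.

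The ADP/ATP, phosphate and ATP-Mg carriers were the most abundant group. Of 6 tested, 4 were lower as deposited and 5 after median-of-ratios scaling, against 16.2% and 27.0% of all genes. In both 1 was higher, against 45.1% and 27.6% of all genes. Slc25a5 (chrX:36795597-36798808, plus strand, GRCm38), the ADP/ATP translocase of most tissues, had 514, 554 and 534 FPKM in NICD2_Pax8 and 666, 774 and 858 FPKM in WT. The groups did not overlap, and its log2 fold change was -0.51 (SE 0.13, limma adjusted p = 0.0132), a call lost without NICD2_Pax8 replicate 3. The annotation holds a processed copy, Slc25a5-ps, with no row of its own in the table, and how fragments shared with it were counted is not given in the sources used here. Slc25a3, the phosphate carrier, had 483, 527 and 510.4 FPKM in NICD2_Pax8 and 711, 604 and 649 FPKM in WT. Its log2 fold change was -0.37 (SE 0.11, limma adjusted p = 0.0285), and that call was lost when NICD2_Pax8 replicate 1, 2 or 3 or WT replicate 3 was left out. Slc25a4, the translocase of heart and muscle, had 188, 166 and 160.0 FPKM in NICD2_Pax8 and 185, 229 and 234 FPKM in WT, and did not pass as deposited (limma adjusted p = 0.0644) but was lower after median-of-ratios scaling (limma adjusted p = 0.00944).

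The calcium-regulated ATP-Mg/phosphate carriers, which set the adenine nucleotide pool of the matrix, moved in both directions. Slc25a24 (chr3:109123149-109168457, plus strand) had 11.6, 9.10 and 9.27 FPKM in NICD2_Pax8 and 5.29, 2.17 and 1.97 FPKM in WT. Each NICD2_Pax8 library was above each WT library. It was 3.17-fold higher by mean FPKM, or 4.82-fold without WT replicate 1, with a log2 fold change of 1.49 (SE 0.29, limma adjusted p = 0.00444). Slc25a25 (chr2:32414487-32451470, minus strand), a paralog, had 15.2, 12.0 and 9.80 FPKM in NICD2_Pax8 and 38.3, 66.6 and 31.8 FPKM in WT. It was 3.69-fold lower, with a log2 fold change of -1.75 (SE 0.29, limma adjusted p = 0.00197) and no overlap between groups. Slc25a23 had 26.4, 35.6 and 34.6 FPKM in NICD2_Pax8 and 50.2, 51.7 and 49.6 FPKM in WT, with a log2 fold change of -0.64 (SE 0.13, limma adjusted p = 0.00481). Slc25a31, the translocase of testis, reached at most 0.06 FPKM in NICD2_Pax8 and 0.03 FPKM in WT and was not tested.

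Among the carboxylate carriers 2 of 4 were lower and all 4 were lower after median-of-ratios scaling, against 16.2% and 27.0% of all genes. Slc25a10 (chr11:120491837-120501161, plus strand), which exchanges malate or succinate for phosphate, had 15.1, 27.7 and 25.8 FPKM in NICD2_Pax8 and 101, 122 and 103 FPKM in WT. All NICD2_Pax8 libraries lay far below the lowest WT library. Its mean was 4.75-fold lower, with a log2 fold change of -2.24 (SE 0.23, limma adjusted p = 0.000308). Slc25a11, the oxoglutarate/malate carrier, had 62.1, 82.0 and 79.7 FPKM in NICD2_Pax8 and 82.8, 94.8 and 102 FPKM in WT, and was not called as deposited (limma adjusted p = 0.0877). Slc25a21, the oxodicarboxylate carrier, had 4.08, 4.08 and 4.42 FPKM in NICD2_Pax8 and 6.28, 7.17 and 8.01 FPKM in WT (limma adjusted p = 0.00339).

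The citrate carrier Slc25a1, which exports citrate for lipid synthesis, had 47.6, 61.8 and 58.2 FPKM in NICD2_Pax8 and 190.3, 72.9 and 68.9 FPKM in WT. The high WT library was replicate 1, the one with adrenal transcripts and the most fat transcripts. The groups did not overlap with or without that library. The mean was 1.98-fold lower with it and 1.27-fold lower without it, and the call failed as deposited (limma adjusted p = 0.103). Acly, which splits citrate in the cytosol, was likewise at 41.2, 49.1 and 43.9 FPKM in NICD2_Pax8 and 318.5, 51.9 and 38.6 FPKM in WT. The share of the carboxylate group in the family's summed FPKM was 6.23% to 7.47% in NICD2_Pax8 and 8.73% to 12.5% in WT.

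Of the 7 amino acid carriers tested, 2 were lower as deposited and 6 after median-of-ratios scaling, against 16.2% and 27.0% of all genes. None was higher in either, against 45.1% and 27.6% of all genes. Slc25a13, the aspartate/glutamate carrier of liver and other epithelia in the malate-aspartate shuttle, had 18.3, 21.0 and 21.3 FPKM in NICD2_Pax8 and 29.1, 49.0 and 46.5 FPKM in WT, with a log2 fold change of -0.97 (SE 0.20, limma adjusted p = 0.00553). Its paralog Slc25a12, the form of brain and muscle, had 26.7, 29.1 and 27.0 FPKM in NICD2_Pax8 and 23.4, 27.7 and 30.8 FPKM in WT, and did not pass (limma adjusted p = 0.869). Slc25a15, the ornithine carrier, had 20.03, 26.4 and 26.7 FPKM in NICD2_Pax8 and 38.8, 43.0 and 47.3 FPKM in WT, with a log2 fold change of -0.80 (SE 0.14, limma adjusted p = 0.00279).

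The glutamate carrier Slc25a22 was at 13.1, 14.1 and 14.6 FPKM in NICD2_Pax8 and 25.5, 12.9 and 15.3 FPKM in WT, where replicate 1 was again the high library. Its mean was 1.29-fold lower with that library and 1.01-fold lower without it. After upper quartile scaling Slc25a22 was not called (limma adjusted p = 0.0665). Slc25a29, a carrier of basic amino acids, had 1.70, 1.90 and 1.13 FPKM in NICD2_Pax8 and 3.62, 2.37 and 2.03 FPKM in WT. Slc25a38, which supplies glycine for heme synthesis, had 15.1, 17.3 and 12.2 FPKM in NICD2_Pax8 and 18.4, 17.6 and 18.4 FPKM in WT. Slc25a44, a carrier of branched-chain amino acids, had 12.0, 16.4 and 15.3 FPKM in NICD2_Pax8 and 20.4, 16.6 and 16.0 FPKM in WT. None of these 4 was called as deposited and all 4 were lower after median-of-ratios scaling. Slc25a2 and Slc25a18, paralogs of the ornithine and glutamate carriers, stayed under the filter, at up to 0.09 FPKM in NICD2_Pax8 and 0.16 FPKM in WT.

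**Figure D4:**
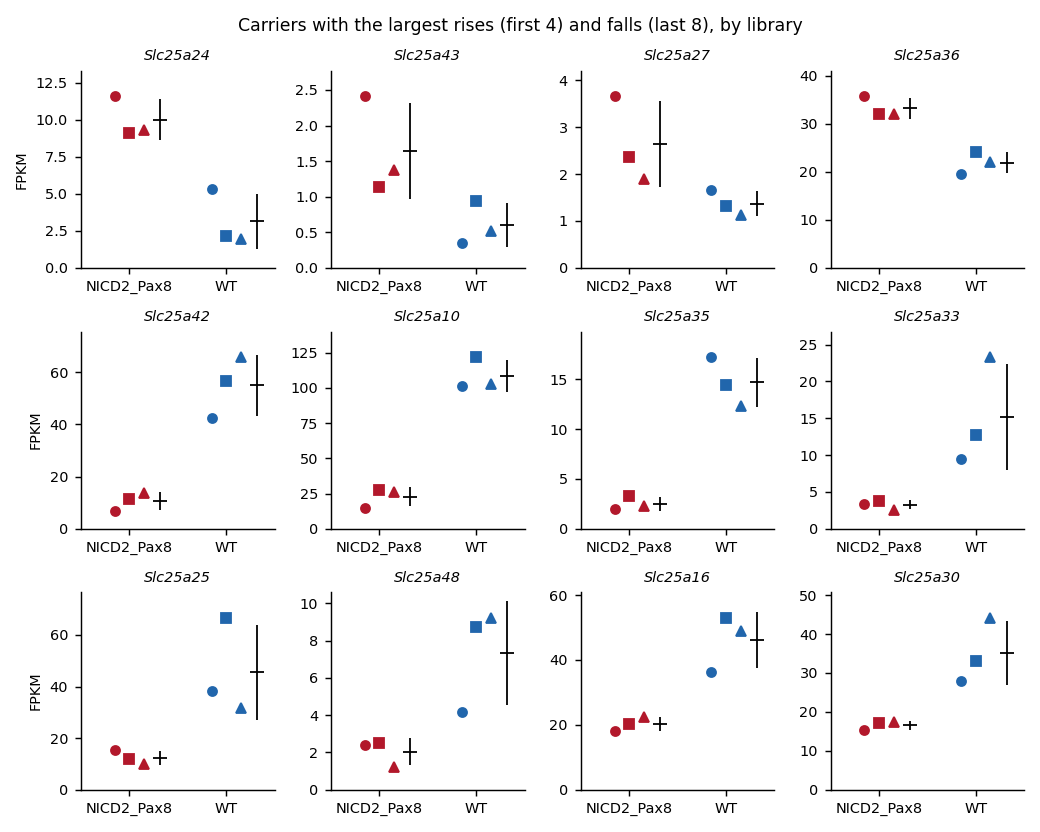
FPKM of the 4 carriers with the largest rises and the 8 with the largest falls in each library, with the NICD2_Pax8 kidneys left of the WT kidneys. Points are single libraries, with circle, square and triangle for replicates 1, 2 and 3, and bars are means ± SD (n = 3). Slc25a24 lies higher in every NICD2_Pax8 library, and Slc25a42 and Slc25a10 lie lower in every one.

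The carriers of cofactors, nucleotides, carnitine, glutathione and NAD were the largest group. Of 12 tested, 5 were lower as deposited and 7 after median-of-ratios scaling, against 16.2% and 27.0% of all genes. As deposited 1 was higher, and after scaling 0, against 45.1% and 27.6% of all genes. Slc25a42 and Slc25a16, both placed with coenzyme A transport in mitochondria, fell. Slc25a42 (chr8:70184340-70212487, minus strand) had 6.86, 11.4 and 13.6 FPKM in NICD2_Pax8 and 42.4, 56.8 and 65.7 FPKM in WT, and the highest NICD2_Pax8 library was far under the lowest WT library. It averaged 10.6 ± 3.43 FPKM in NICD2_Pax8 and 55.0 ± 11.8 FPKM in WT (SD, n = 3 each), 5.17-fold lower, with a log2 fold change of -2.29 (SE 0.26, limma adjusted p = 0.000469). Slc25a16, placed with coenzyme A transport, had 18.1, 20.1 and 22.5 FPKM in NICD2_Pax8 and 36.4, 52.9 and 49.0 FPKM in WT, 2.28-fold lower (limma adjusted p = 0.00111).

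Pyrimidine nucleotide carriers, which feed synthesis of mitochondrial DNA and RNA, diverged as deposited. Slc25a33 (chr4:149744036-149774267, minus strand) had 3.42, 3.83 and 2.59 FPKM in NICD2_Pax8 and 9.46, 12.7 and 23.3 FPKM in WT, 4.62-fold lower and without overlap (limma log2 fold change -1.84, SE 0.31, adjusted p = 0.00218). An antisense gene, Gm13068, covers 14.9% of its exon bases, and without a stated strand setting their fragments cannot be told apart. Slc25a36 had 35.7, 31.9 and 32.0 FPKM in NICD2_Pax8 and 19.6, 24.0 and 22.0 FPKM in WT, higher as deposited (log2 fold change 0.58, SE 0.11, limma adjusted p = 0.00356) and not called after median-of-ratios scaling (limma adjusted p = 0.198).

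Slc25a20, which brings acylcarnitines into the matrix for fatty acid oxidation, had 23.8, 30.0 and 44.1 FPKM in NICD2_Pax8 and 55.4, 51.0 and 52.1 FPKM in WT. Its log2 fold change was -0.72 (SE 0.21, limma adjusted p = 0.022), a call lost without NICD2_Pax8 replicate 2 or WT replicate 2 or 3. Slc25a51, the NAD carrier, had 27.1, 32.6 and 31.8 FPKM in NICD2_Pax8 and 53.1, 48.1 and 44.6 FPKM in WT (limma adjusted p = 0.0026). Slc25a39, a glutathione carrier and the third most abundant member in both groups, had 244, 351 and 329 FPKM in NICD2_Pax8 and 378, 406 and 413 FPKM in WT, and did not pass as deposited (limma adjusted p = 0.0675). Its paralog Slc25a40 was at 4.17, 3.91 and 4.96 FPKM in NICD2_Pax8 and 3.70, 5.77 and 4.77 FPKM in WT, with the groups overlapping.

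Slc25a17, a cofactor carrier of peroxisomes, had 62.0, 68.0 and 78.6 FPKM in NICD2_Pax8 and 56.6, 72.6 and 64.7 FPKM in WT, and did not pass (limma adjusted p = 0.532). Slc25a26, which imports S-adenosylmethionine, had 6.65, 8.59 and 8.31 FPKM in NICD2_Pax8 and 10.3, 8.74 and 8.34 FPKM in WT. Slc25a32, a carrier of folate and FAD, had 2.43, 1.77 and 1.98 FPKM in NICD2_Pax8 and 1.88, 0.84 and 1.49 FPKM in WT. As deposited none of these 3 was called.

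The iron carriers mitoferrin 1 and mitoferrin 2, which feed heme and iron-sulphur cluster synthesis, were at unlike levels. Slc25a37 (mitoferrin 1, the form needed by red cell precursors) had 9.29, 7.01 and 7.29 FPKM in NICD2_Pax8 and 13.6, 10.7 and 9.55 FPKM in WT. Its log2 fold change was -0.47 (SE 0.16, limma adjusted p = 0.0424), and the call was lost without NICD2_Pax8 replicate 2 or 3 or WT replicate 1 or 2. Red cell precursor markers summed to 24.0 to 51.1 FPKM in NICD2_Pax8 and 179.6 to 807 FPKM in WT, with Hba-a1, an alpha globin, averaging 37.2 and 458 FPKM, and their part in Slc25a37 was not tested. Slc25a28 (mitoferrin 2, the form of most tissues) had 26.8, 30.6 and 29.8 FPKM in NICD2_Pax8 and 22.3, 24.9 and 28.5 FPKM in WT and was not called (limma adjusted p = 0.182).

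Of the 3 carriers related to uncoupling proteins, Slc25a30, first described as a kidney mitochondrial carrier, had 15.2, 17.0 and 17.4 FPKM in NICD2_Pax8 and 28.0, 33.0 and 44.1 FPKM in WT, 2.12-fold lower (log2 fold change -1.02, SE 0.17, limma adjusted p = 0.0022). Slc25a14 was at 4.32, 3.42 and 3.86 FPKM in NICD2_Pax8 and 3.99, 3.42 and 2.78 FPKM in WT, with no call. Slc25a27 had 3.66, 2.37 and 1.89 FPKM in NICD2_Pax8 and 1.66, 1.33 and 1.12 FPKM in WT, and passed as deposited (log2 fold change 0.60, SE 0.20, limma adjusted p = 0.0392) but not after median-of-ratios scaling (limma adjusted p = 0.148). That call was also lost without NICD2_Pax8 replicate 1 or 2, or WT replicate 2 or 3.

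Carriers with other or unassigned roles included Slc25a35, with the third largest fall on the log2(FPKM + 1) scale and the largest among tested carriers by the ratio of mean FPKM. Slc25a35 (chr11:68968096-68972516, plus strand) had 1.95, 3.24 and 2.25 FPKM in NICD2_Pax8 and 17.2, 14.5 and 12.3 FPKM in WT, without overlap, 5.91-fold lower (log2 fold change -2.18, SE 0.18, limma adjusted p = 0.000154). Exons of Rangrf on the other strand cover 31.3% of its exon bases, and without a stated strand setting their fragments cannot be told apart. Rangrf was at 14.3, 11.4 and 9.27 FPKM in NICD2_Pax8 and 10.7, 11.3 and 11.8 FPKM in WT. Slc25a48, described as a mitochondrial choline carrier, had 2.41, 2.51 and 1.19 FPKM in NICD2_Pax8 and 4.15, 8.71 and 9.21 FPKM in WT, 3.61-fold lower (log2 fold change -1.43, SE 0.31, limma adjusted p = 0.00701).

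Slc25a43 had 2.41, 1.13 and 1.38 FPKM in NICD2_Pax8 and 0.35, 0.94 and 0.52 FPKM in WT, higher as deposited (log2 fold change 0.71, SE 0.23, limma adjusted p = 0.0322), not called after median-of-ratios scaling (limma adjusted p = 0.0962), and lost without NICD2_Pax8 replicate 1 or 3 or WT replicate 1 or 3. All its WT values were under 1 FPKM, so it passed the filter only through the group where it is high, and its call gives no support to the count of higher carriers. Its WT values correspond to an estimated 10 to 27 fragments per library. Slc25a45 had 25.8, 38.0 and 35.5 FPKM in NICD2_Pax8 and 24.0, 24.8 and 26.1 FPKM in WT, and Slc25a34 had 17.2, 18.5 and 27.2 FPKM in NICD2_Pax8 and 10.9, 17.0 and 19.4 FPKM in WT, with no call for either. Slc25a46, an outer membrane protein of mitochondrial shape, had 17.7, 12.1 and 13.4 FPKM in NICD2_Pax8 and 17.8, 17.2 and 17.4 FPKM in WT, and was not called as deposited. Slc25a47 and Slc25a53 were under the filter, at up to 1.06 FPKM in NICD2_Pax8 and 0.96 FPKM in WT.

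Ratios between paralogs in the same library do not change when a library is multiplied by a single factor, apart from 0.1 FPKM added to each value. Quantile normalization does change them, and the ratios are from FPKM as deposited. Of 14 listed pairs, 12 had both members past the filter, and in 10 of these the ratios of the groups did not overlap (exact permutation test, two-sided, p = 0.1, the smallest that 3 against 3 allows, 0.12 after adjustment over the 12 pairs). No pair could therefore pass 0.05. For single genes as deposited, the groups did not overlap for 49.9% (higher) and 18.8% (lower) of all genes tested. The share over other gene pairs was not computed, so the 10 are not read as particular to carriers. Pairs of the ATP-Mg carriers share members, so their ratios are not independent.

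Slc25a10 to Slc25a11 was 0.244, 0.339 and 0.325 in NICD2_Pax8 and 1.22, 1.29 and 1.01 in WT, so the dicarboxylate carrier was above the oxoglutarate carrier in each WT library and below it in each NICD2_Pax8 library. Slc25a12 to Slc25a13 was 1.46, 1.39 and 1.27 in NICD2_Pax8 and 0.803, 0.566 and 0.664 in WT, a log2 difference of 1.03. Slc25a25 to Slc25a24 was 1.31, 1.32 and 1.06 in NICD2_Pax8 and 7.12, 29.4 and 15.4 in WT, a log2 difference of -3.59. The lowest WT ratio of that pair was in replicate 1.

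Slc25a33 to Slc25a36 was 0.0984, 0.123 and 0.0839 in NICD2_Pax8 and 0.486, 0.531 and 1.06 in WT. Slc25a34 to Slc25a35 was 8.41, 5.58 and 11.6 in NICD2_Pax8 and 0.634, 1.18 and 1.57 in WT. Slc25a16 to Slc25a42 was 2.61, 1.75 and 1.65 in NICD2_Pax8 and 0.858, 0.932 and 0.746 in WT. In each of these pairs every NICD2_Pax8 library lay on the same side of every WT library.

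The other pairs included 4 without overlap and 2 that overlapped. Slc25a14 to Slc25a30 had a log2 difference of 1.25, and Slc25a23 to Slc25a24 and to Slc25a25 had -2.43 and 1.17. Slc25a4 to Slc25a5 was 0.366, 0.300 and 0.300 in NICD2_Pax8 and 0.278, 0.296 and 0.273 in WT, a log2 difference of 0.18, the smallest of the 10. Slc25a28 to Slc25a37 (exact permutation p = 0.2) and Slc25a39 to Slc25a40 (exact permutation p = 0.3) overlapped.

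**Figure D5:**
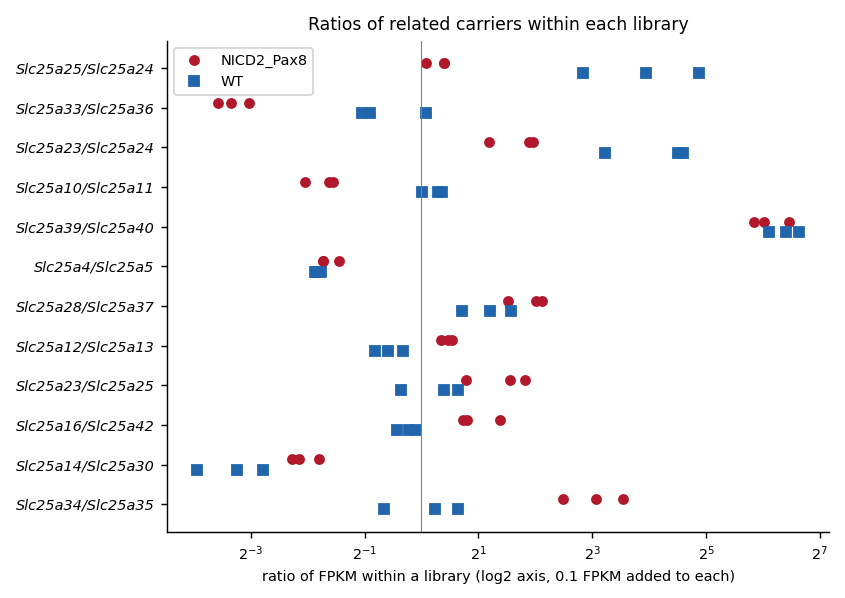
Ratio of FPKM between carrier paralogs in each library on a log axis, with the NICD2_Pax8 libraries drawn above the WT libraries of each pair. Points are single libraries. The ratios of Slc25a10 to Slc25a11 lie at 0.244 to 0.339 in NICD2_Pax8 and 1.01 to 1.29 in WT.

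Promoter windows of 300 bases, from 250 before to 50 after an annotated start, were read from RefSeq for GRCm38.p6, and 45 windows of 35 members were found. Among the 10 members with values and no window were Slc25a2, Slc25a26, Slc25a27, Slc25a32, Slc25a35, Slc25a37, Slc25a44, Slc25a46 and Slc25a51. The windows of 3 strong falls and of the rise of Slc25a24 are shown because these members, among those with a window, had the largest log2 fold changes in their direction, with CCAAT boxes (CCAAT, or ATTGG on the other strand) and the E-box CACGTG in capitals. Slc25a42 is chr8:70212232-70212531 and Slc25a33 is chr4:149774218-149774517, both on the minus strand, and Slc25a10 is chr11:120491587-120491886 and Slc25a24 is chr3:109122899-109123198, both on the plus strand.
Slc25a42: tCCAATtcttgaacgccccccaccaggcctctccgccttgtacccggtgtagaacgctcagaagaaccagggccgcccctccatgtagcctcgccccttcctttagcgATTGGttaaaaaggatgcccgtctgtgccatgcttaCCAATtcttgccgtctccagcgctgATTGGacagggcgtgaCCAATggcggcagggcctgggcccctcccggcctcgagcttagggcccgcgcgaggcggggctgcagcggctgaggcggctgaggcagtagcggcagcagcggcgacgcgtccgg
Slc25a10: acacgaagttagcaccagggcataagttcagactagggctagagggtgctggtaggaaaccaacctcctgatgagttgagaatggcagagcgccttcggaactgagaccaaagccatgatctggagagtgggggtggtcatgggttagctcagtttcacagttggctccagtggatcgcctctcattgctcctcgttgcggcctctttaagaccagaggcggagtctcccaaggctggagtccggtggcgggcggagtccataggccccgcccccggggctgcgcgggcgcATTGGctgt
Slc25a33: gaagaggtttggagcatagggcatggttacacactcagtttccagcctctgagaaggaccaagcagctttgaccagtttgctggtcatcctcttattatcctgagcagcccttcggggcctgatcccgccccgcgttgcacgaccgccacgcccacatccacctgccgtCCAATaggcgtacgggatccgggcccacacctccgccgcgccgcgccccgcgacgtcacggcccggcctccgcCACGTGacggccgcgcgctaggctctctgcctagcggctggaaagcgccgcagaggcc
Slc25a24: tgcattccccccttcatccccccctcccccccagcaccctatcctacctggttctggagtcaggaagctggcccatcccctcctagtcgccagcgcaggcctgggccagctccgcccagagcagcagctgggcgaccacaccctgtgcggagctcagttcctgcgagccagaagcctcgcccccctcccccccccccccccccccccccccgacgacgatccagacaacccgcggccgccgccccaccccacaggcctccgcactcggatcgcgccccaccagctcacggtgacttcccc
The Slc25a42 window held 5 CCAAT boxes, the Slc25a10 window 1, the Slc25a33 window 1 with 1 E-box, and the Slc25a24 window no match. CCAAT was found on either strand in 22 of the 45 carrier windows (48.9%) and in 37.4% of 32851 windows of all genes. CACGTG was in 8 carrier windows (17.8%) and in 7.15% of all windows. Windows of a gene can overlap and each was counted, so the same CACGTG of Slc25a14 and the same CCAAT of Slc25a23 were counted more than once. The RBPJ motif GTGGGAA, through which Notch signals, was in 1 carrier window (2.22%) and in 6.38% of all windows. Of the 19 windows of members called lower, 0 held GTGGGAA, 3 CACGTG and 11 CCAAT. Several of the 11 belonged to Slc25a25 or Slc25a23, so they do not stand for separate genes. With 6.38% over all windows, 19 windows are too few to read 0 as an absence. Motifs of NRF1 (GCGCA followed by its reverse complement TGCGC), of estrogen-related receptors (TCAAGGTCA) and of HNF4 and PPAR (AGGTCA repeated after 1 base of any kind) were in 0 carrier windows and in 0.971%, 0.423% and 0.0396% of all windows. Matches of different motifs did not overlap. A match describes letters in the window, and the GC content of the windows, 59% as a median in the carriers and 52.7% over all windows, differs too.

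Carrier proteins outside the name pattern and the enzymes beside the carriers were counted on lists made with earlier results known, to be read against 16.2% of all genes lower and 45.1% higher as deposited, and 27.0% and 27.6% after median-of-ratios scaling. Of 3 tested among the uncoupling proteins Ucp1, Ucp2 and Ucp3 and the related Mtch proteins, Mtch1 was higher as deposited (145 ± 13.3 FPKM in NICD2_Pax8 and 97.0 ± 3.28 in WT, SD, n = 3 each) but not after median-of-ratios scaling, Mtch2 was lower, and Ucp2 was not called. Ucp1, the uncoupling protein of brown fat, was listed at 0, 0.94 and 0 FPKM in NICD2_Pax8 and 97.6, 5.97 and 0.09 FPKM in WT. It was highest in WT replicate 1, the library with the most fat transcripts.

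Of 17 other mitochondrial transport proteins, 6 were lower and 2 higher (9 and 0 after median-of-ratios scaling), where 16.2% of all genes were lower and 45.1% higher (27.0% and 27.6% after scaling). Mpc1, a subunit of the pyruvate carrier, averaged 182 ± 29.2 FPKM in NICD2_Pax8 and 595 ± 13.6 FPKM in WT, 3.27-fold lower (limma adjusted p = 0.000143), and Sfxn1, the serine carrier, was 2.03-fold lower. Of 6 shuttle enzymes 4 were lower (5 after scaling), among them Mdh1 (2.19-fold) and Gpd2 (2.68-fold). Of 7 carnitine shuttle genes 4 were lower (5 after scaling), among them Slc22a5, the plasma membrane carnitine transporter, at 3.16-fold and Crat at 2.37-fold.

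The same shares of all genes apply to the lists that follow. Of 11 citrate, malate and pyruvate enzymes, 5 were lower and 3 higher (6 and 2 after scaling): Me1 was 7.24-fold lower and Pck2, which makes phosphoenolpyruvate in mitochondria, was 4.41-fold higher. Of 11 glutamate, ornithine and arginine enzymes tested, 6 were lower and 5 higher (6 and 3 after scaling), with Gatm 13.7-fold lower and Oat 2.94-fold higher. Of 10 heme and iron-sulphur genes 4 were lower and 1 higher (8 and 0 after scaling), with Cpox 2.19-fold and Iscu 2.11-fold lower. Of 9 one-carbon and cofactor enzymes 4 were lower and 3 higher (4 and 2 after scaling), with Mthfd1l 7.02-fold and Mthfd2 4.996-fold higher. Mthfd1l, at 0.61 to 0.86 FPKM in WT, and Pycr1 of the glutamate, ornithine and arginine list, at 0.17 to 0.44 FPKM in WT, passed the filter only through NICD2_Pax8. Of 15 genes of mitochondrial content, 8 were lower and 3 higher (12 and 1 after scaling), with Sdha 1.78-fold lower and Nrf1 2.31-fold higher.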

How the data were processed

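Whole-kidney RNA extracted with Trizol went into Illumina TruSeq libraries, according to the labels' protocols. The authors deposited FPKM for each of the 6 libraries, the unit their file headers give, with group log2 fold changes and q-values from the authors beside them. Bowtie 0.12.2 and mm8 stand in the submitters' processing notes. Of 22002 genes matched by identifier, 19305 (87.7%) had the start and end of the GRCm38 annotation, as did 42 of 47 Slc25a genes, so positions are given as GRCm38. Not given in the sources used here were the counting tool and the annotation version. Positions of members were taken as deposited.

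The members and lists were chosen with earlier results of these data known. Using R 4.3.3, limma 3.58.1 (trend on the mean) was fitted to log2(FPKM + 1) of the 13500 genes that reached 1 FPKM in 3 or more libraries, with genotype as the only term, and adjusted p-values under 0.05 were called. Folds are ratios of mean FPKM, while log2 fold changes are on the log2(FPKM + 1) scale and understate changes of low genes. Depth was estimated from FPKM steps of genes with 1 transcript, where 72.0% to 78.0% of low values came within 0.15 of a whole number of fragments, too few for a count test. Paralog ratios used FPKM + 0.1. Exon overlaps came from the GENCODE annotation of GRCm38. Named members were the 8 largest rises (4 existed) and 8 largest falls among called members without overlap, the most abundant pair of each role group and the members of the listed pairs. The others were added to describe the rest of the family, of which 1 member is counted but not reported here. Each partner list is represented by the pair with the smallest p, and Mtch and Ucp genes were added. Alternatives were median-of-ratios, quantile and upper quartile scaling, other pseudocounts, filters and thresholds, a replicate block, and leaving out each library. Scripts were tested on simulated data.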

Additional observations from a re-analysis of the deposited data

How the results depend on the processing

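Both the scaling and the size threshold moved the counts. Of the carriers, 4 were higher and 17 lower as deposited, against 1 and 27 after median-of-ratios scaling, 1 and 24 after quantile normalization, and 1 and 26 after upper quartile scaling. Over all genes, 6095 were higher and 2190 lower as deposited, against 3725 and 3642 after median-of-ratios scaling and 3866 and 3558 after quantile normalization. Requiring an absolute log2 fold change of 1 left 1 carrier higher and 8 lower, and 2427 and 1009 genes. At an adjusted p under 0.01, 2 carriers were higher and 13 lower, and 4507 genes higher and 1543 lower. Leaving out 1 library gave 2 to 5 carriers higher and 14 to 18 lower, and 5156 to 6661 genes higher and 1826 to 2276 lower. With median-of-ratios scaling these were 1 carrier higher and 25 to 30 lower. Genes higher then numbered 3455, 3059 and 2993 without NICD2_Pax8 replicates 1 to 3 and 4016, 3098 and 3167 without WT replicates 1 to 3, and genes lower 2949 to 3936, with 3454 without NICD2_Pax8 replicate 1. The cause of these shifts was not tested. Deviations from the group means correlated at 0.095, -0.050 and 0.006 between same-numbered libraries. The largest correlation was 0.1995, between NICD2_Pax8 replicate 3 and WT replicate 2. These values show no pairing by replicate number but cannot exclude one. A replicate block gave 3 carriers higher and 18 lower, and 5818 genes higher and 2164 lower. With median-of-ratios scaling and the block, 1 carrier was higher and 26 lower, and 3482 genes higher and 3527 lower. Slc25a12 and Slc25a17 had log2 fold changes of 0.03 and 0.10 as deposited. After median-of-ratios scaling of all 6 libraries these were -0.34 and -0.27, and neither gene was called in either setting. With that scaling and without WT replicate 1 they were -0.50 and -0.42, and both genes were called lower. Under pseudocounts of 0.1 and 5 FPKM all 40 carriers kept their call and direction. A pseudocount of 5 FPKM moved 4 paralog differences, among them Slc25a33/Slc25a36 to -1.74, by more than the spread between libraries.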

Other observations

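The order of the carriers by mean FPKM changed for some members. Slc25a10 ranked 17 of 45 in NICD2_Pax8 and 6 in WT, and Slc25a42 ranked 27 and 9. Slc25a36 ranked 9 in NICD2_Pax8 and 22 in WT, and Slc25a24 ranked 28 and 36. Slc25a5, Slc25a3, Slc25a39 and Slc25a4 held ranks 1 to 4 in both groups. The highest WT library was at most 1.09 times the lowest for Slc25a46, Slc25a23, Slc25a38, Slc25a20, Slc25a45 and Slc25a39, and for Slc25a46 the highest was 1.03 times the lowest. WT replicate 1 was the highest WT library for 16 of the 40 carriers tested, and the share over all genes was not computed.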
